A study of Mus musculus with 30 samples.

Results

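Genes that act in mitosis, at the spindle and at the kinetochore were followed in mouse satellite cells (SCs), the stem cells of skeletal muscle, as these left rest after injury. The set holds 43 genes, named by symbol for their roles and not by their values, each represented by the single-gene probe set with the highest mean over the arrays. All 43 were measured, among 19938 genes tested. To divide, a cell must condense its chromosomes, build a bipolar spindle, attach every kinetochore to it and then part the chromatids and the cytoplasm. A checkpoint at unattached kinetochores restrains the anaphase-promoting complex (APC/C) until attachment is complete. Most genes of this machinery are transcribed in late S and G2 phase and are low in resting cells, and SCs of uninjured adult muscle are almost all at rest.

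RNA of SCs sorted from hindlimb muscle was hybridised to 30 arrays, 3 for each of 10 groups. Old VCAM cells came from wild-type C57BL6 mice aged 22 to 24 months, as quiescent SCs (QSCs, no injury) and as activated SCs (ASCs) 60 h after muscle injury with barium chloride. Young VCAM cells came from wild-type C57BL6 mice aged 2 to 3 months, as QSCs and as ASCs at 36, 60 and 84 h after the same injury. Both kinds were gated as VCAM+ / CD31- / CD45- / Sca1-. Young YFP cells were taken at the same 4 stages from Pax7CreER/+;ROSA26eYFP/+ mice of 2 to 3 months given tamoxifen, and were gated on YFP, which marks only cells in which the Pax7 locus drove the Cre recombinase, and their progeny. Nothing in the labels ties the 3 arrays of a group to separate animals, so the p values measure the spread between these arrays, which may be technical.

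Values are log2 intensities. Array medians lay between 7.03 and 7.16, and arrays of a group had correlations of 0.996 to 0.9983 (over genes, which are no replicates). The SC marker Vcam1 averaged between 12.17 and 12.88 in all 10 groups, and Pax7 averaged between 8.95 and 10.03 in the ASC groups and between 10.98 and 11.68 in the QSC groups. Of 11 satellite cell markers 7 were called lower in young VCAM ASCs than in QSCs at 36 h, 7 at 60 h and 8 at 84 h, and their mean was 12.21 in QSCs, 10.74 at 36 h, 10.36 at 60 h and 10.68 at 84 h. In YFP cells 6, 8 and 7 were called lower, and in old cells 7 at 60 h. Called higher were 1 in VCAM cells at 84 h, 1, 1 and 2 in YFP cells, and 1 in old cells. RNA of CD45 (Ptprc) and CD31 (Pecam1), proteins that the VCAM gate excludes, was measured all the same. Ptprc averaged between 6.24 and 6.34 in the QSC groups and between 7.49 and 9.49 in the ASC groups. Pecam1 averaged between 9.57 and 9.78 in the QSC groups, 9.59 in VCAM and 10.98 in YFP cells at 36 h, and between 7.34 and 8.69 in the later ASC groups. Of 11 endothelial markers 10 were called lower at 60 h than in QSCs in both young sorts and 8 in old cells. At 36 h 1 was called higher and 3 lower in VCAM cells, and 10 higher and 1 lower in YFP cells. At 84 h 9 were lower in each young sort. Of 10 fibroblast markers 6 were called higher and 1 lower at 36 h in each young sort. At 60 h 2 were higher and 3 lower in VCAM cells, 1 and 4 in YFP cells, and 5 and 1 in old cells. At 84 h these counts were 5 and 2 in VCAM and 5 and 3 in YFP cells. The mean level of 18 macrophage markers, of which 17 were called higher at 60 h and all at 36 and 84 h than in QSCs of the same sort in young cells, lay between 6.43 and 6.67 in QSC groups and between 7.99 and 9.86 in ASC groups. The part of all these markers in the changes from QSCs to ASCs was not tested. In sorted bulk RNA, fewer cells of a type and less RNA per cell cannot be told apart.

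In QSCs the mitotic genes were mostly dim. In young VCAM QSCs 27 of the 43 lay under the array median in all 3 arrays and 9 lay over it in all 3, while in every ASC group 0 lay under it in all arrays. The corresponding counts under the median were 35 in old QSCs and 34 in young YFP QSCs. The mean over the 43 genes was 6.86 in young VCAM QSCs, 9.52 at 36 h, 10.42 at 60 h and 10.16 at 84 h. In young YFP cells it was 6.62, 9.16, 10.33 and 10.09 at the same stages. In old cells it was 10.003 at 60 h and 6.38 in QSCs.

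**Figure D1:**
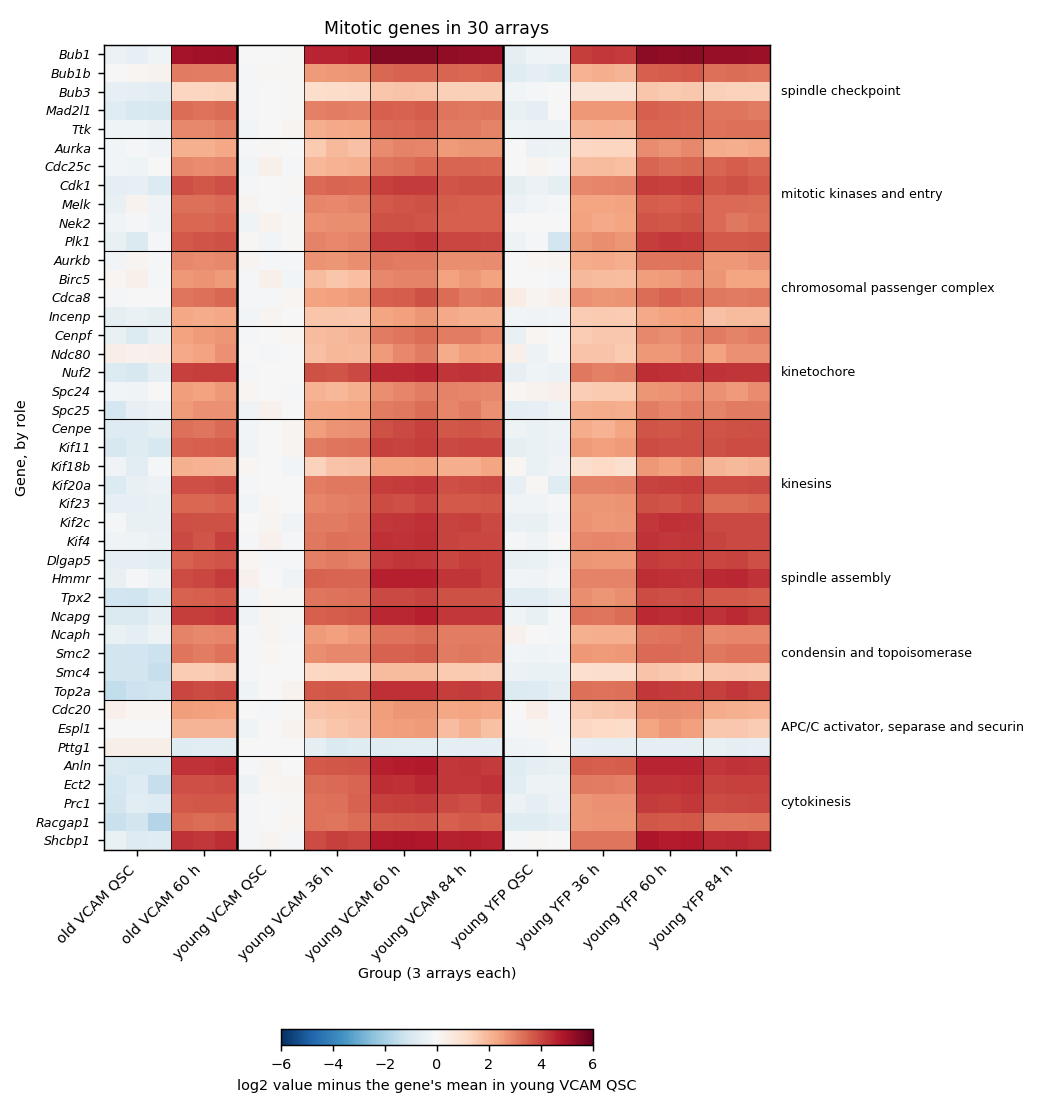
Each cell is the log2 value of a gene (down, grouped by role) in 1 array (across, 3 per group) minus that gene's mean in young VCAM QSCs. The ASC columns are red for 42 of the 43 genes in each sort and at both ages, and Pttg1 is the exception.

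A gene was called higher or lower at an adjusted p under 0.05 and a fold of at least 1.5. Nearly the whole set was higher in activated than in resting cells. In young VCAM ASCs 42 of the 43 genes were called higher at 36 h than in QSCs, when 13.2% of all genes were, and 1 was called lower, when 9.72% were. At 60 h the counts were again 42 and 1, against 16.6% and 12.6% of all genes. At 84 h 42 were called higher, against 16.4%. The median change of the 43 genes was 2.85, 3.73 and 3.59 on the log2 scale at 36, 60 and 84 h, and the median of all genes was -0.01, -0.04 and -0.04. The arrays of the ASC and QSC groups did not overlap for any of the 43 genes at 36 or 60 h, nor did those of 59.4% and 62% of all genes. RMA values carry no detection call, so a fold over a dim QSC value measures a ratio of intensities and may understate the ratio of RNA.

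Among the checkpoint genes, Bub1, a kinase that recruits the checkpoint to kinetochores, changed most of all 43. Bub1 measured 10.95, 10.95 and 10.98 in the 3 young VCAM 60 h arrays, against 5.42, 5.43 and 5.53 in the QSC arrays, a 45.2-fold rise (log2 5.50 ± 0.07 SE, adjusted p = 3.4e-28). Mad2l1, the Mad2 protein that captures the APC/C activator, measured 11.86, 11.81 and 11.90 at 60 h against 8.23, 8.26 and 8.36 in QSCs, an 11.9-fold rise. For both genes the arrays of each group lay close together and the groups did not overlap. Bub3, the binding partner of both Bub kinases, was already bright at rest, with 9.81 to 9.91 in QSCs, and rose 3.20-fold, the least of the 42 rises at 60 h.

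Of the kinases that start mitosis, Plk1, which matures centrosomes, measured 10.83, 10.87 and 10.96 at 60 h, against 6.74, 6.48 and 6.74 in QSCs (18.8-fold, log2 4.23 ± 0.16). Cdk1, the master kinase of mitotic entry, measured 10.98, 11.09 and 11.06 at 60 h, against 6.79, 6.92 and 6.93 in QSCs (17.9-fold, log2 4.16 ± 0.07). The other 4 of this role, Nek2, Melk, Cdc25c and Aurka, rose between 7.47-fold and 13.9-fold. The chromosomal passenger complex corrects faulty attachments and guides cytokinesis. Its subunit borealin (Cdca8) measured 9.41, 9.44 and 9.65 at 60 h, against 5.78, 5.77 and 5.93 in QSCs, and its kinase Aurkb measured 10.24, 10.21 and 10.21 against 7.24, 7.01 and 6.998. These were rises of 12.8-fold and 8.79-fold, and survivin (Birc5) and Incenp rose 7.67-fold and 5.62-fold.

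The outer kinetochore complex that grips microtubules is built of Ndc80, Nuf2, Spc24 and Spc25. Nuf2 measured 10.80, 10.80 and 10.90 at 60 h, against 6.27, 6.37 and 6.36 in QSCs, a 22.6-fold rise, while the other subunits rose between 7.25-fold and 9.18-fold. Cenpf, a kinetochore protein, measured 9.50, 9.61 and 9.75 at 60 h against 6.27, 6.36 and 6.51 in QSCs (9.44-fold). All 5 genes of this role rose. The 7 kinesins, motors that move along microtubules, rose too, between 5.39-fold for Kif18b and 20.8-fold for Kif4. Kif4, which binds chromosome arms, measured 10.07, 10.03 and 10.12 at 60 h, against 5.56, 5.94 and 5.58 in QSCs. Kif2c, which takes microtubule ends apart at centromeres, measured 10.21, 10.28 and 10.35 at 60 h, against 6.003, 6.15 and 5.77 in QSCs (19.8-fold).

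Chromosome structure and the last steps of division followed the same course. Ncapg, a subunit of condensin I, measured 10.60, 10.60 and 10.70 at 60 h, against 5.84, 6.21 and 6.13 in QSCs (23.8-fold). Top2a, which untangles sister DNA, measured 12.08, 12.07 and 12.08 at 60 h, against 7.44, 7.72 and 7.93 in QSCs (20.9-fold). Smc4, a core subunit of both condensins, resembled Bub3 in being bright at rest, at 9.83 to 9.96, and rose 3.72-fold. Hmmr, a spindle assembly factor, measured 10.04, 10.03 and 10.04 at 60 h, against 5.63, 5.34 and 5.15 in QSCs (25.4-fold). Dlgap5, which stabilises kinetochore fibres, measured 10.62, 10.71 and 10.64 at 60 h, against 6.56, 6.36 and 6.35 in QSCs (18.8-fold). Of the cytokinesis genes, Shcbp1, a partner of the central spindle, measured 10.48, 10.53 and 10.46 at 60 h, against 5.61, 5.81 and 5.56 in QSCs (28.5-fold). Anillin (Anln), the scaffold of the contractile ring, measured 11.51, 11.55 and 11.62 at 60 h, against 6.72, 7.005 and 6.81 in QSCs (26.3-fold). The 5 genes of this role had a median change of 4.45 on the log2 scale, and the 5 kinetochore genes one of 3.20.

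At the switch from metaphase to anaphase, Cdc20, which activates the APC/C, measured 9.77, 9.92 and 9.93 at 60 h, against 7.27, 7.23 and 7.34 in QSCs (6.05-fold). Separase (Espl1), the protease that opens cohesin, measured 9.22, 9.24 and 9.32 at 60 h, against 6.49, 6.78 and 6.96 in QSCs (5.71-fold). The probe set of Pttg1, the gene of securin, which holds separase inactive, moved the other way. Probe sequences were not used here, so how well this probe set measures Pttg1 RNA was not tested. It measured 8.26, 8.29 and 8.28 at 60 h and 8.39, 8.11 and 8.26 at 36 h, against 8.99, 8.95 and 9.004 in QSCs. The changes of Pttg1 were -0.73 ± 0.06 at 36 h and -0.70 ± 0.06 at 60 h, both called, and -0.58 ± 0.06 at 84 h, just short of 1.5-fold though with an adjusted p of 8.3e-10. The 84 h change was called with the arrays quantile-normalized again (-0.78), without young VCAM QSC array 2 (-0.60) and without 84 h array 3 (-0.60).

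**Figure D2:**
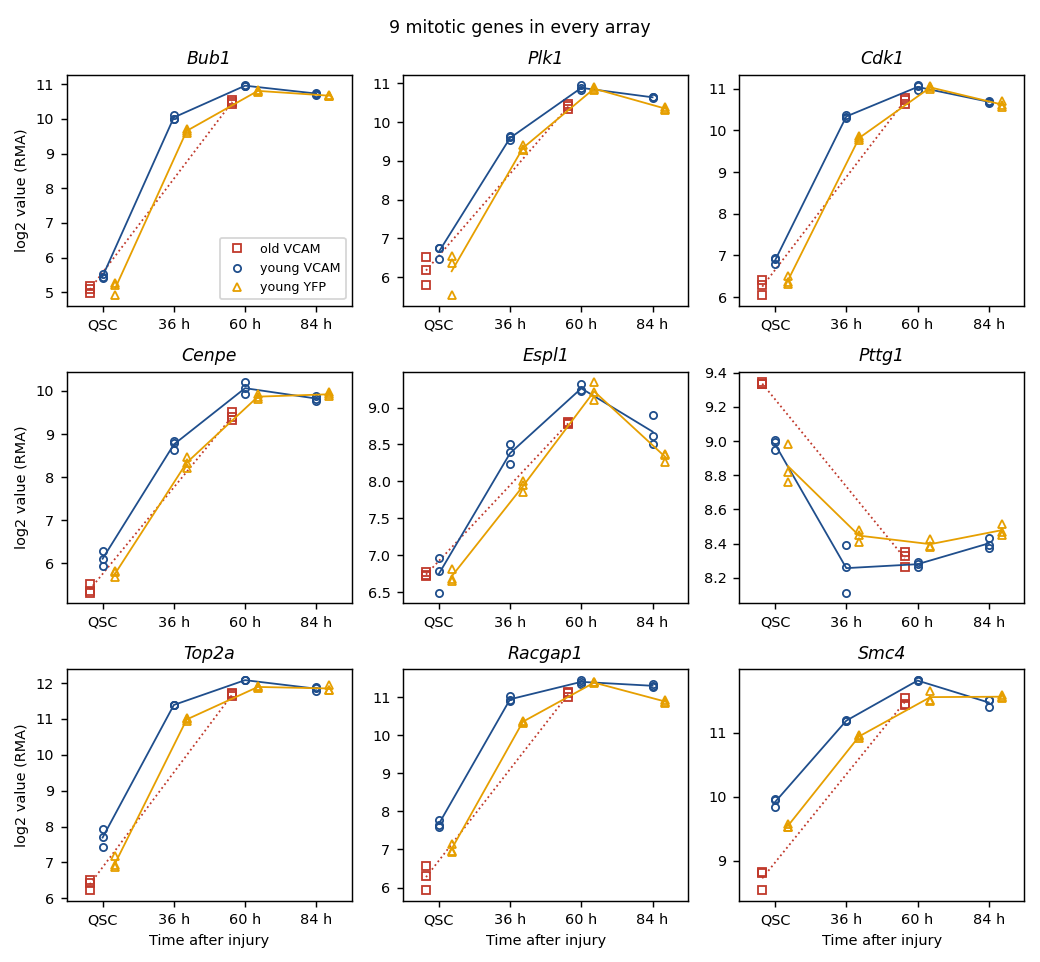
Each point is an array, with the log2 value on the vertical axis and the time after injury on the horizontal axis, and lines join group means (dotted for old VCAM cells, which have no 36 or 84 h arrays). Bub1 reached 10.95 or more at 60 h in young VCAM cells, Espl1 came down at 84 h, and Pttg1 was lower in ASCs than in QSCs.

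Young YFP cells, which share no array with the VCAM series, gave the same number of rises. In YFP ASCs 42 of the 43 genes were called higher than in YFP QSCs at 36 h (10.1% of all genes), at 60 h (17.2%) and at 84 h (17%), with medians of 2.78, 3.85 and 3.57 on the log2 scale against -0.06, -0.03 and -0.08 for all genes. The gene not called was Pttg1 at each time. Pttg1 measured 8.39, 8.42 and 8.38 in YFP cells at 60 h, against 8.76, 8.82 and 8.99 in YFP QSCs, so the arrays did not overlap, but the change of -0.46 ± 0.06 was under 1.5-fold. Bub1 again changed most at 60 h, 51.3-fold over YFP QSCs.

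Promoter windows were searched for the letters of elements known from cell cycle genes. The cell cycle genes homology region (CHR), with the core TTTGAA, and the CCAAT box bound by NF-Y are known from promoters of G2 and M phase genes, and E2F sites from genes of the G1 to S transition. RefSeq windows (GRCm38.p6) of 250 bases before to 50 after the start were found for 34 of the 43 genes, 37 windows in all. TTTGAA on either strand was in 28 of these 37 windows (75.7%), in 4 of 34 windows of a DNA replication list (11.8%) and in 17.9% of all 32851 windows. CCAAT on either strand was in 28 of the 37 windows (75.7%), in 20 of the 34 replication windows (58.8%) and in 37.4% of all. Both were in 25 of the 37 windows, or 67.6%, and in 6.95% of all. E2F sites, searched as TTTCCCGC and TTTGGCGC on either strand, were in 1 mitotic window (2.7%), in 11 replication windows (32.4%) and in 1.56% of all. The CHR variant TTCGAA was in 3 mitotic windows (8.11%), 2 replication windows (5.88%) and 1.56% of all. No motif searched contains another. Of the genes, 25 of 34 had TTTGAA in a window. Since 3 genes have 2 overlapping windows, the matches are 30 distinct TTTGAA sites, of which 25 began within 50 bases of an annotated start. A match is a description of the letters only.

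The windows below belong to the 4 genes with the largest rise at 60 h among those with a window that holds TTTGAA. They are shown because 3 of them place CHR letters near the start together with CCAAT letters, while the Anln window holds 2 adjoining TTTGAA matches, on opposite strands, and no CCAAT. Capitals mark TTTGAA (or TTCAAA, its reverse complement) and CCAAT (or ATTGG), and each window reads 5′ to 3′ in the direction of the gene, with the start after base 250. The Anln window is chr9:22389157-22389456, the Hmmr window chr11:40733388-40733687 and the Ect2 window, 1 of 2 for this gene, chr3:27153805-27154104, all on the minus strand. The Ncapg window is chr5:45669675-45669974 on the plus strand.
Anln: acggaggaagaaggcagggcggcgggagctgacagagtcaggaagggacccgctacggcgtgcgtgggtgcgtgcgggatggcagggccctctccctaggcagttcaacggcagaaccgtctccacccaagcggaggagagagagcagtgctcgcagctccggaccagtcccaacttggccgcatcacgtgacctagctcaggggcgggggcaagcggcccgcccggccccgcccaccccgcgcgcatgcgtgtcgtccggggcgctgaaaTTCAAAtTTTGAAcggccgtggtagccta
Hmmr: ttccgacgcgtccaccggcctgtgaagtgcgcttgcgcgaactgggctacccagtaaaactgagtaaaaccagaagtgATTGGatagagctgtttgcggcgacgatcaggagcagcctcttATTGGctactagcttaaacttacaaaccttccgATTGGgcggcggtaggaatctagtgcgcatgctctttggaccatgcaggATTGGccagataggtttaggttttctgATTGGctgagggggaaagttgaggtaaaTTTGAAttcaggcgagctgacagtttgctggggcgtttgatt
Ncapg: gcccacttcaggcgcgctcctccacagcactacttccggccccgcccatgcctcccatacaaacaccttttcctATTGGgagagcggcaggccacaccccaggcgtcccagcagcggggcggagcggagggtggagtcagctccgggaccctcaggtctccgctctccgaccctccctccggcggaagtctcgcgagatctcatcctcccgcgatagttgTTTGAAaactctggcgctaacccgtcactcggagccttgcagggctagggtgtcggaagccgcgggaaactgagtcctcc
Ect2: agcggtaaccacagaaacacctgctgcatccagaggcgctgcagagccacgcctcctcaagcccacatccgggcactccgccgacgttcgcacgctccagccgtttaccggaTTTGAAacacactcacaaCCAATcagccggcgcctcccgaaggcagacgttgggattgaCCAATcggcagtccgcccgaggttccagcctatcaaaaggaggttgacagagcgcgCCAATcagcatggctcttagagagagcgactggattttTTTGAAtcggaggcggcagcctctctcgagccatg
In Hmmr the TTTGAA began at base 9 after the start, behind 5 CCAAT matches between -172 and -20. In Ect2, which activates the small GTPase RhoA for cytokinesis, TTTGAA began at -138 and 16, with CCAAT at -120, -79 and -23. In Ncapg TTTGAA began at -30 and CCAAT at -176.

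**Figure D3:**
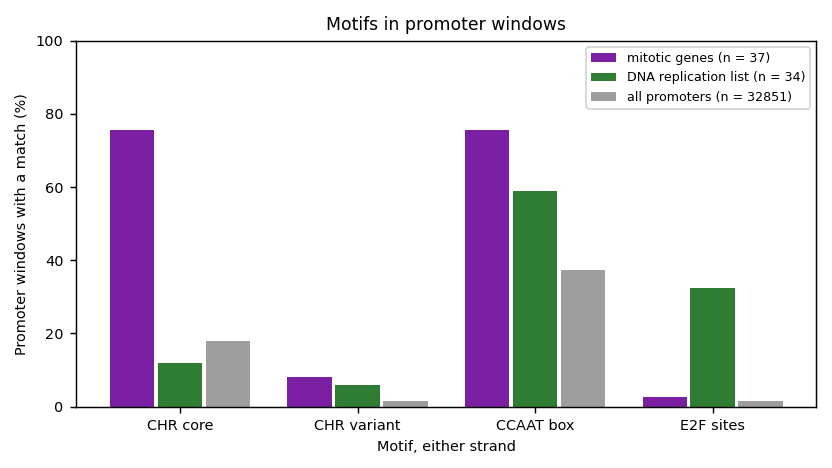
Bars give the percent of promoter windows with at least 1 match on either strand, for the 37 windows of mitotic genes, the 34 of the DNA replication list and all 32851 windows. The CHR core is in 75.7% of mitotic and 11.8% of replication windows, and E2F sites are in 2.7% and 32.4%.

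Over the 42 genes that rose, the 36 h change in young VCAM cells was a median 74.1% of the 60 h change on the log2 scale (range 60.6% to 87.7%), and in YFP cells 67.8% (45.1% to 81.5%), with 4 genes under 50%. On the scale of intensities the medians were 48.3% and 38.6%. In VCAM cells 41 of the 43 genes had their highest group mean at 60 h, 1 (Cdc25c) at 84 h and 1 (Pttg1) in QSCs. In YFP cells the counts were 36 at 60 h, 6 at 84 h and 1 in QSCs. The shares of all genes highest at each stage were not computed, so these counts are no result about the set.

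From 36 to 60 h 39 of the 43 genes were called higher in VCAM cells (6.26% of all genes), with a median of 0.91 on the log2 scale, and 42 in YFP cells (8.73%), with a median of 1.19. Centring the arrays moved the median of all genes to 0.11 and 0.13 for this step, and those of the 43 genes to 1.02 and 1.27. Cenpe, the kinesin that carries chromosomes to the spindle equator, made the largest step in VCAM cells. It measured 8.63, 8.79 and 8.85 at 36 h and 9.94, 10.06 and 10.20 at 60 h (2.47-fold). Plk1 stood at 9.61, 9.54 and 9.63 at 36 h, below its 60 h arrays given above, and stepped up by 1.29 ± 0.16. Cenpf stood at 8.30, 8.32 and 8.41 at 36 h and stepped up by 1.28 ± 0.11. Cdc25c, the phosphatase that activates Cdk1, measured 7.68, 7.79 and 7.86 at 36 h and 8.90, 8.99 and 9.14 at 60 h. These 4 genes, chosen for their large steps, showed no overlap between the 36 and 60 h arrays. The same held for 42 of the 43 genes, and the share of all genes was not computed for this step. The 4 genes not called in this step were Pttg1, Aurkb, Racgap1 and Mad2l1, with changes of 0.02, 0.42, 0.46 and 0.52. In YFP cells the largest steps were those of Kif2c (8.66, 8.57 and 8.61 at 36 h, then 10.22, 10.34 and 10.32 at 60 h), Cdc25c (1.59), Shcbp1 (1.57) and Cenpe (1.53). Over the same step 18 of 18 macrophage markers were called lower in VCAM cells (9.86 at 36 h and 7.99 at 60 h in the mean) and 10 in YFP cells (9.48 and 8.63). All 11 endothelial markers were called lower in both sorts (8.73 and 7.08 in VCAM cells, 9.93 and 7.56 in YFP cells), as were 9 of 10 fibroblast markers (11.30 and 9.72, 10.54 and 8.90) and, of the 11 satellite cell markers, 3 in VCAM and 6 in YFP cells. Of the satellite cell markers 1 was called higher in VCAM cells. The part of these markers in the step was not tested.

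From 60 to 84 h the set eased off slightly. In VCAM cells 41 of the 43 changes were negative with a median of -0.24, and 27 passed the adjusted p in that direction (13.4% of all genes), but only Espl1 was called lower, when 0.732% of all genes were. Espl1 measured 9.22, 9.24 and 9.32 at 60 h and 8.62, 8.90 and 8.51 at 84 h (-0.59 ± 0.10), and the 84 h arrays all lay below those of 60 h. The call of Espl1 was lost without 60 h array 3, 84 h array 1 or 84 h array 3, where the change was -0.56, -0.56 and -0.50. In YFP cells 2 genes were called lower (2.19%). Espl1 measured 9.10, 9.34 and 9.21 at 60 h and 8.36, 8.37 and 8.26 at 84 h (-0.89 ± 0.10), and Cdc20 measured 10.03, 10.05 and 10.02 at 60 h and 9.52, 9.42 and 9.37 at 84 h (-0.60 ± 0.09). With the arrays centred on their median the count was 6, and 4 when they were quantile-normalized. Of the macrophage markers 14 were called higher at 84 h than at 60 h in VCAM cells (mean 8.91 at 84 h) and 15 in YFP cells (9.58), of the fibroblast markers 4 and 6, of the endothelial markers 3 and 0 and of the satellite cell markers 2 and 4, with 1 satellite cell marker lower in YFP cells, and their part in the decrease was not tested.

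**Figure D4:**
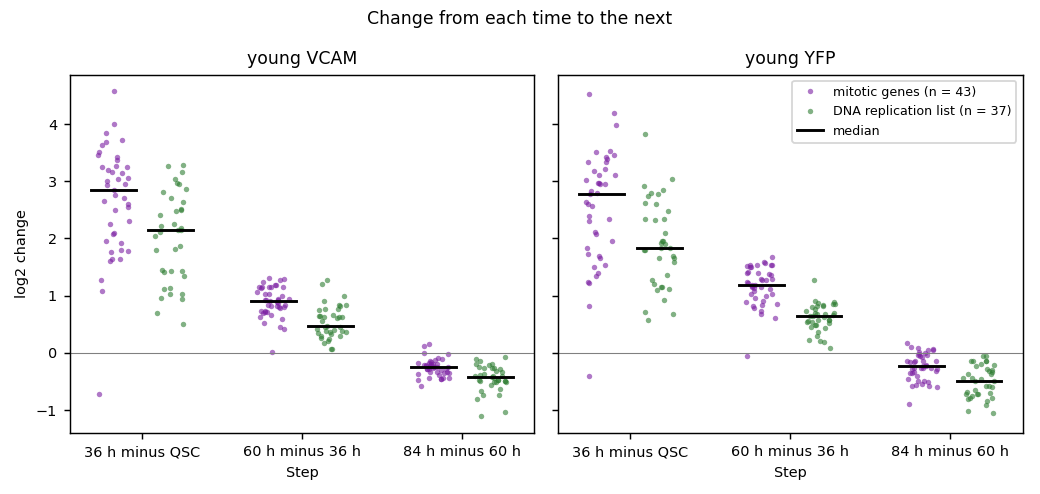
Each point is the log2 change of a gene in 1 step (36 h minus QSC, 60 h minus 36 h, 84 h minus 60 h) in young VCAM and young YFP cells, for the 43 mitotic genes and 37 DNA replication genes, with black bars at the medians. The mitotic medians in VCAM cells were 2.85, 0.91 and -0.24, and the replication medians 2.14, 0.47 and -0.42.

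Other genes of the pathway were followed through lists chosen by function. In a list of 37 DNA replication genes, 37 were called higher at 60 h than in VCAM QSCs, with a median of 2.59. From 36 to 60 h 17 of these 37 were called higher in VCAM cells (median 0.47) and 20 in YFP cells (0.64). From 60 to 84 h 7 were called lower in VCAM cells (-0.42) and 15 in YFP cells (-0.49). No test was made of the difference between this list and the mitotic genes.

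Of 12 other regulators of mitotic entry 11 rose at 60 h in VCAM cells, led by cyclin A2 (Ccna2, log2 4.23 ± 0.08), Mastl (3.56 ± 0.08), which inhibits the phosphatase opposing Cdk1, and cyclin B2 (Ccnb2, 3.16 ± 0.09). Of 29 further centromere and kinetochore genes 27 rose, with Cenph at 4.24 ± 0.08 and the kinetochore scaffold Knl1 at 4.13 ± 0.10. All 4 other condensin subunits rose, Ncapd2 most (2.84 ± 0.06). Of 16 centrosome and spindle pole genes 13 rose, among them Cep55 (4.19 ± 0.08), which acts in the final cut between daughter cells, and Aspm (3.45 ± 0.11). All 5 other mitotic kinesins rose, Kif15 most (4.34 ± 0.07), while of 10 kinesins of cargo transport 1 rose (Kif3b, 0.88 ± 0.07) and 1 fell (Kif13b, -0.999 ± 0.056).

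The lists that hold subunits present outside mitosis moved less. Of 16 APC/C subunits and regulators 10 rose at 60 h, with a median of 0.68, and the largest changes were those of Fbxo5 (3.72 ± 0.08), an APC/C inhibitor, and Ube2c (1.95 ± 0.11), the ubiquitin-conjugating enzyme that works with the APC/C. Of 15 cohesin genes 6 rose and 1 fell, with a median of 0.41. Those with the largest changes were Cdca5 (3.47 ± 0.11) and Esco2 (3.23 ± 0.10), which establish or keep cohesion in S phase and after it, and the shugoshins Sgo1 (3.22 ± 0.14) and Sgo2a (3.12 ± 0.10), which protect it at centromeres.

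Many mitotic genes measured lower in old than in young VCAM QSCs. Of the 43 genes 17 were called lower in old QSCs, when 4.7% of all genes were, and 0 were called higher, with a median of -0.48 on the log2 scale against 0.02 for all genes. By the adjusted p alone 30 were lower (21.3% of all genes) and 1, Pttg1, was higher (16.7%). The decrease was uneven across roles. It took in 5 of 5 cytokinesis genes (median -0.89), 4 of 5 genes of condensin and topoisomerase (-1.18), 2 of 3 of spindle assembly, 2 of 5 at the kinetochore, 2 of 7 kinesins, 1 of 5 checkpoint genes and 1 of 6 kinases and entry factors. None of the 4 passenger complex genes was called, nor any of Cdc20, Espl1 and Pttg1.

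Racgap1, which with the kinesin Kif23 forms the centralspindlin complex, showed the largest decrease. It measured 6.31, 6.57 and 5.93 in old QSCs, against 7.597, 7.63 and 7.78 in young VCAM QSCs (2.63-fold, log2 -1.40 ± 0.09, adjusted p = 2.9e-12). Top2a measured 6.23, 6.44 and 6.50 in old QSCs, against 7.44, 7.72 and 7.93 in young VCAM QSCs (-1.30 ± 0.09). For both genes every old array lay below every young one, which is no further result, since they were called on these arrays. The condensin cores moved alike. Smc4 measured 8.81, 8.83 and 8.54 in old QSCs, against 9.83, 9.96 and 9.96 in young VCAM QSCs (-1.19 ± 0.06), and Smc2 measured 6.34, 6.26 and 6.15 against 7.35, 7.54 and 7.38 (-1.18 ± 0.06). Ect2, Tpx2, Anln, Kif11, Mad2l1, Prc1, Nuf2, Ncapg, Cenpe, Shcbp1, Cdk1, Spc25 and Dlgap5 were the other 13 called, with changes of -1.07 to -0.59.

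The genes not called at rest lay on both sides of 0. Bub1b, the checkpoint pseudokinase BubR1, measured 7.39, 7.50 and 7.55 in old QSCs, against 7.22, 7.44 and 7.403 in young VCAM QSCs, and these arrays overlapped. Pttg1 measured 9.34, 9.33 and 9.33 in old QSCs, against 8.99, 8.95 and 9.004 in young VCAM QSCs (0.36 ± 0.06), with no overlap. Young YFP QSCs were another young group, though of another genotype and gate. Their mean was above that of old and below that of young VCAM QSCs for 27 of the 43 genes. For 23 of the 43 every old array was below every YFP array, and the median difference between old and YFP QSCs was -0.25. The shares of all genes were not computed for these counts, so they are no result about the set. Among the 17 called genes, which were chosen on the old and young VCAM arrays, these counts were 17 and 15. Racgap1, for example, measured 6.96, 6.94 and 7.14 in YFP QSCs, and Top2a 6.87, 6.93 and 7.18.

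Of the 37 replication genes 1 was called lower in old QSCs (median -0.14), and of the 12 other entry regulators 1, Ccna2 at -0.91. Of the 5 other mitotic kinesins 2 were called lower (median -0.33). Satellite cell markers were also lower for 3 of 11, Itga7, Calcr and Chodl, with a median of -0.49 over the list, and the mean of the 11 was 11.82 in old QSCs and 12.21 in young VCAM QSCs. Of 10 fibroblast markers 4 were called higher and 4 lower in old QSCs, with differences of -1.35 to 1.45 and means of 10.07 and 10.12. The mean of 18 macrophage markers was 6.67 and 6.43 in these groups. Their part in the result was not tested.

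At 60 h the difference between ages was smaller in range and shared by nearly all genes. Values were lower in old than in young VCAM ASCs for 42 of the 43 genes, with a median of -0.41 against -0.05 for all genes, and 40 passed the adjusted p (13.7% of all genes). The arrays did not overlap for 40 genes (40.1% of all genes in either direction), 39 of them among those that passed. Because the differences were mostly under 1.5-fold, 4 genes were called lower (0.657% of all genes). Cenpf measured 8.77, 8.92 and 9.03 in old ASCs, against 9.50, 9.61 and 9.75 in young VCAM ASCs (-0.71 ± 0.11), and Aurka, the kinase of spindle poles, measured 9.22, 9.26 and 9.40 against 9.92, 10.07 and 10.03 (-0.71 ± 0.08). Cenpe measured 9.39, 9.32 and 9.51 in old ASCs, against 9.94, 10.06 and 10.20 in young VCAM ASCs (-0.66 ± 0.08), and Hmmr measured 9.30, 9.38 and 9.55 against 10.04, 10.03 and 10.04 (-0.63 ± 0.09). The arrays of the ages did not overlap for any of these 4 genes, as for most of the 43. Hmmr was not called without old 60 h array 1 (-0.57). With the arrays centred on their median, which lowered the median of all genes to -0.12, the count was 8.

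Pttg1 was the exception at this age comparison too, with 8.26, 8.33 and 8.35 in old ASCs and 8.26, 8.29 and 8.28 in young VCAM ASCs. In the lists, 0 of 37 replication genes were called lower in old ASCs (median -0.08), against 4 of 29 centromere and kinetochore genes (-0.28) and 3 of 5 other mitotic kinesins (-0.59), with Kif14 at -0.70 and Ska1, a kinetochore protein, at -0.78. Markers of other cells differed in the opposite direction. All 18 macrophage markers were called higher in old ASCs, with a mean of 9.74 in old and 7.99 in young VCAM ASCs, Ptprc averaged 9.15 and 7.49, and 8 of 11 endothelial markers and 5 of 10 fibroblast markers were called higher. The mean of the 11 satellite cell markers was 10.65 in old and 10.36 in young VCAM ASCs, and that of 8 lymphocyte markers 5.74 and 5.79. The part of these markers in the lower mitotic values was not tested.

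**Figure D5:**
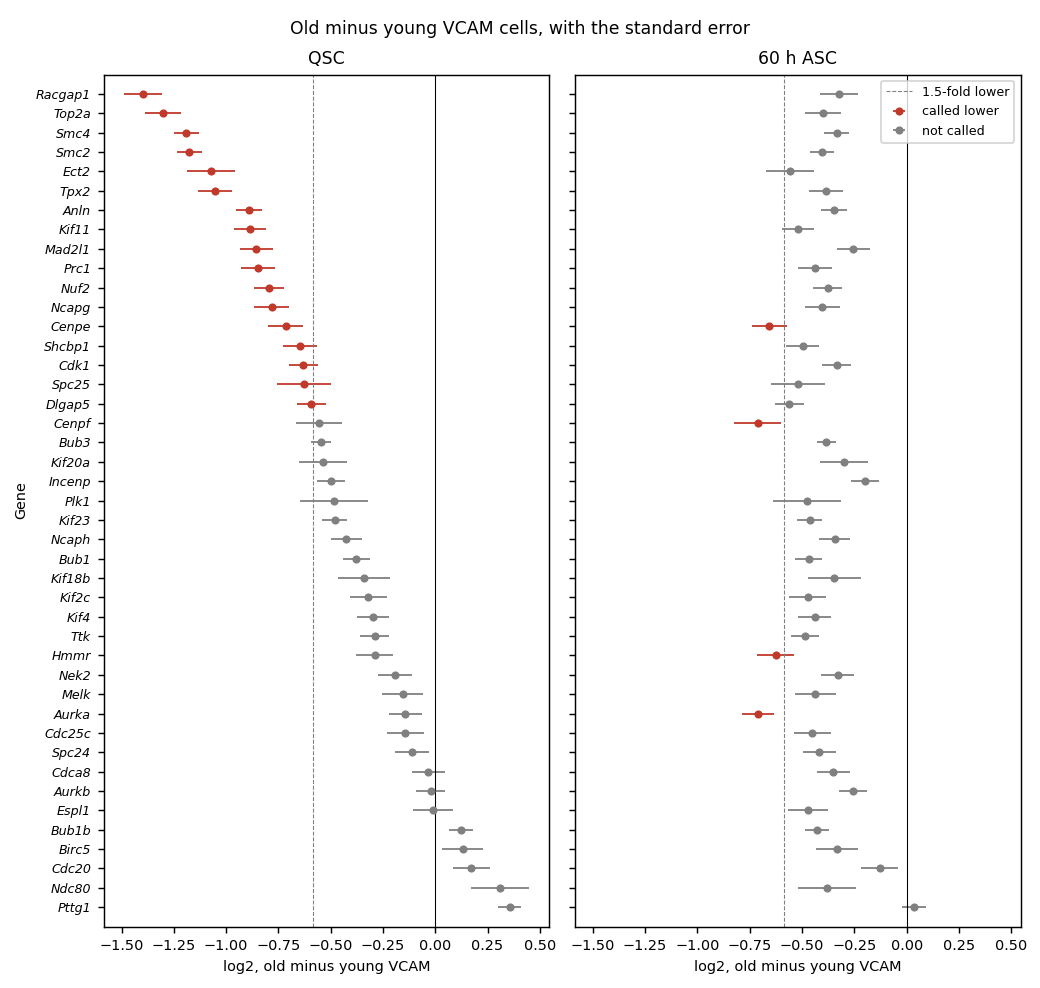
Points are old minus young VCAM differences on the log2 scale with the standard error of the fit, for QSCs and 60 h ASCs, with genes in the order of the QSC difference. At rest the differences run between -1.40 for Racgap1 and 0.36 for Pttg1, and at 60 h between -0.71 and 0.04.

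The response of old cells took in the same 42 genes. In old VCAM cells 42 of the 43 genes were called higher at 60 h than in QSCs (17.8% of all genes) and Pttg1 lower (11.7%), with a median of 3.95 against -0.11 for all genes. Bub1 measured 10.44, 10.49 and 10.55 in old ASCs, against 5.09, 4.97 and 5.19 in old QSCs (42.5-fold). Top2a measured 11.68, 11.63 and 11.73 in old ASCs (5.29 ± 0.09 over old QSCs), Anln 11.19, 11.16 and 11.29 (5.26 ± 0.06) and Shcbp1 9.98, 9.92 and 10.08 (4.98 ± 0.08). All of these old ASC arrays lay far above the old QSC arrays, of which Anln had 5.99, 5.93 and 5.94 and Shcbp1 5.26, 4.86 and 4.91. The change of Pttg1 was -1.02 ± 0.06.

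Whether the response differed with age was tested as an interaction, the old response minus the young VCAM response. Of the 43 genes 6 responded more in old cells (6.81% of all genes) and 1 less (2.16%), and the median was 0.02 against -0.04 for all genes. The 6 were Racgap1 (1.07 ± 0.13), Top2a (0.90 ± 0.12), Smc4 (0.86 ± 0.08), Smc2 (0.77 ± 0.08), Tpx2 (0.67 ± 0.12) and Mad2l1 (0.60 ± 0.11), all of them genes that were lower at rest in old cells, and the interaction uses the same QSC arrays. The gene with the smaller response was Ndc80 (-0.69 ± 0.19). By the same test 17 of the 18 macrophage, 7 of the 11 endothelial, 5 of the 10 fibroblast and 5 of the 11 satellite cell markers had a higher response in old cells and 1 satellite cell marker a lower one, and their part in these differences was not tested. With the mean of both its probe sets Top2a was not called (0.56). The 1 smaller response became 4 without young VCAM QSC array 2, 3 without young 60 h array 1, 2 without old QSC array 1, old QSC array 3 or old 60 h array 3, and 0 without young 60 h array 3 or old 60 h array 1.

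Between the gates, young VCAM cells had somewhat more mitotic RNA than young YFP cells at rest and at 36 h. The gate goes with the genotype and with the tamoxifen given to the YFP mice, and the design cannot tell these apart. Every gate comparison below carries all of them. In QSCs 5 genes were called higher in VCAM than in YFP cells (1.74% of all genes) and 0 lower, with a median of 0.23 against 0.01 for all genes. Top2a measured 7.44, 7.72 and 7.93 in VCAM QSCs against 6.87, 6.93 and 7.18 in YFP QSCs (0.70 ± 0.09), and Bub1b 7.22, 7.44 and 7.403 against 6.61, 6.77 and 6.65 (0.68 ± 0.06). Racgap1 (0.66 ± 0.09), with the arrays given above, Anln (0.59 ± 0.06), at 6.11, 6.26 and 6.39 in YFP QSCs, and Tpx2 (0.59 ± 0.08) completed the 5. None of these 5 had overlapping arrays, which is no further result, since they were called on the same arrays. Anln was not called with the arrays centred (0.53) or quantile-normalized (0.58), or without VCAM QSC array 2 (0.51) or YFP QSC array 1 (0.52), and Top2a was not called with the mean of both its probe sets (0.50). The young VCAM QSC arrays are those of the age comparison as well.

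At 36 h 5 genes were called higher in VCAM than in YFP ASCs (2.78%), with a median of 0.39 against 0.03 for all genes. Shcbp1 measured 9.57, 9.77 and 9.66 in VCAM ASCs against 8.86, 8.85 and 8.86 in YFP ASCs (0.81 ± 0.08), and Nuf2 10.14, 10.09 and 10.29 against 9.50, 9.35 and 9.45 (0.74 ± 0.07). Prc1, which bundles microtubules of the central spindle, measured 10.11, 10.17 and 10.38 against 9.49, 9.58 and 9.58 (0.67 ± 0.08), and Kif11, the motor that pushes spindle poles apart, 9.75, 9.85 and 9.87 against 9.21, 9.08 and 9.20 (0.66 ± 0.08). Racgap1 was the fifth gene (0.59 ± 0.09), and 33 genes passed the adjusted p in this direction (19.6% of all genes) and 2 in the other (17.7%). At this time all 11 endothelial markers were called lower in VCAM than in YFP ASCs (means 8.73 and 9.93), as were 6 of 11 satellite cell markers (10.74 and 11.35), while 7 of 18 macrophage markers (9.86 and 9.48) and 6 of 10 fibroblast markers (11.30 and 10.54) were called higher. Of the fibroblast markers 1 was called lower. The part of these markers in the difference was not tested.

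At 60 h no mitotic gene was called between the gates, when 0.557% of all genes were higher and 0.757% lower in VCAM cells, and at 84 h again none was, against 0.446% and 1.21%. By the adjusted p of the limma fit alone 6 genes were higher and 0 lower in VCAM cells at 60 h (5.06% and 7.56% of all genes), and 7 higher and 1 lower at 84 h (9.88% and 10.8%). The median differences were 0.10 and 0.06. The gate by time interaction, the VCAM response minus the YFP response, was called positive for 3 genes at 36 h (4.47% of all genes), namely Shcbp1 (0.79 ± 0.11), Spc24 (0.74 ± 0.11) and Aurkb (0.61 ± 0.10). Spc24 measured 8.87, 8.74 and 8.92 in VCAM ASCs at 36 h against 8.27, 8.34 and 8.36 in YFP ASCs, and Aurkb 9.80, 9.71 and 9.88 against 9.31, 9.34 and 9.28. In QSCs Spc24 measured 6.90, 6.76 and 6.66 in VCAM cells and 6.91, 6.98 and 7.07 in YFP cells. Aurkb was not called without VCAM QSC array 2 (0.57) or array 3 (0.57), VCAM 36 h array 3 (0.57) or YFP QSC array 3 (0.58).

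The interaction was called negative for 2 genes at 60 h (2.78%), Bub1b (-0.80 ± 0.08) and Racgap1 (-0.64 ± 0.13), and for 3 at 84 h (3.84%), Top2a (-0.71 ± 0.12), Anln (-0.64 ± 0.09) and Spc25 (-0.60 ± 0.18). At 60 h Bub1b measured 10.81, 10.90 and 10.91 in VCAM ASCs and 10.94, 11.01 and 11.02 in YFP ASCs, and Racgap1 11.36, 11.40 and 11.45 and 11.39, 11.37 and 11.39. At 84 h Top2a measured 11.86, 11.88 and 11.78 in VCAM ASCs and 11.79, 11.94 and 11.81 in YFP ASCs, and Anln 11.10, 11.14 and 11.06 and 11.10, 11.19 and 11.15. The ASC levels of Racgap1, Top2a and Anln thus overlapped between the gates, whereas their QSC levels did not. By the same test 8 of the 18 macrophage markers responded less in VCAM cells at 60 h and 12 at 84 h, and 8 responded more at 36 h. For endothelial markers 11 of 11 responded less at 36 h, 4 at 60 h and 0 at 84 h, and for satellite cell markers 6 of 11, 3 and 3. Of the satellite cell markers 1 responded more at 60 h and 1 at 84 h. Of 10 fibroblast markers 4 responded more and 1 less at 36 h, 3 and 1 at 60 h, and 2 and 1 at 84 h. The part of these markers was not tested. Each of the negative calls other than Bub1b was lost in at least 1 alternative. Racgap1 was at -0.55 with the arrays centred and -0.58 without VCAM QSC array 3. Top2a was at -0.44 with both probe sets, Anln at -0.57 and Spc25 at -0.54 with the arrays centred, Anln at -0.56 and -0.57 and Spc25 at -0.47 and -0.56 without VCAM QSC array 2 and YFP QSC array 1, and Spc25 at -0.51, -0.58 and -0.57 without VCAM 84 h array 3, YFP QSC array 2 and YFP 84 h array 3.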

How the data were processed

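The deposited values are log2 intensities of 35556 probe sets that the authors made from Affymetrix Mouse Gene 1.0 ST arrays by RMA in Expression Console (background correction, quantile normalization and summary of probes). The software version was not given in the sources used here. No further scaling or filter was applied, and the number of arrays, 3 per group, limits the precision.

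Probe sets were named through the platform annotation. Of them 21789 had 1 symbol, 1621 had several and were not used, and 12146 had none. For 999 genes with several probe sets, Top2a among the mitotic genes, the brightest over all arrays was taken, which left 19938 genes. Linear models were fitted in limma 3.58.1 (R 4.3.3, lmFit and eBayes) with 10 group means over all 30 arrays (20 residual degrees of freedom). P values were Benjamini-Hochberg adjusted over all 19938 genes for each of 21 comparisons, two-sided, and a call needed an adjusted p under 0.05 and a 1.5-fold change. SEs are those of the fit. The fit was tested on simulated data.

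The members, lists, motifs and tests were chosen with earlier results of these data known, so no p was adjusted over a list and no list was tested. Values in each array are given for the 2 largest changes of each role at 60 h, the genes not called there or at 84 h, and the up to 4 largest called changes of each other comparison. Bub3, Smc4 and Bub1b, and YFP values of single genes, were added after their values were seen. Some genes of the lists are not reported here. Alternatives were median centring of arrays, quantile normalization, a filter on dim genes (9969 kept, all 43 mitotic genes among them), the mean of all probe sets of a gene, no fold threshold, only the groups compared, a replicate block and leaving out each array. Promoter windows came from RefSeq (GRCm38.p6).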

Additional observations from a re-analysis of the deposited data

Results flagged for a closer look

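Responses that differed between the gates or between the ages by a test of the difference itself (an interaction in the limma fit over all genes) are listed here. Gate stands here for gate, genotype and tamoxifen together, which the design cannot tell apart. The VCAM response minus the YFP response was called higher for 3 of the 43 mitotic genes at 36 h (4.47% of all genes), with log2 differences of 0.786 for Shcbp1, 0.737 for Spc24 and 0.61 for Aurkb. At 60 h it was called lower for 2 genes (2.78% of all genes), Bub1b (-0.795) and Racgap1 (-0.636). At 84 h it was called lower for 3 genes (3.84%), Top2a (-0.709), Anln (-0.636) and Spc25 (-0.603).

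The old response at 60 h minus the young VCAM response was called higher for 6 of the 43 genes (6.81% of all genes) and lower for 1 (2.16%). No statement about the set of 43 rests on these counts. The largest differences were those of Racgap1 (1.073), Top2a (0.903), Smc4 (0.856) and Smc2 (0.771). All 4 measured lower in old than in young VCAM cells at both stages. That the difference was larger in QSCs than at 60 h is the positive interaction itself and no further result.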

How the results depend on the processing

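Direction was followed through the alternatives for 62 results of single genes, and none of them changed direction. Other called results were followed by counts only. The median age difference in response over the 43 genes was 0.02 as reported, -0.08 with the arrays centred and 0.04 with quantile normalization. With no replicate block in the reported fit, a fit with the replicate number as a block left each count of members as reported, for example 17 lower in old QSCs and 42 higher at 60 h in young VCAM cells. The numbers were not taken to pair the arrays. After removal of group means 27 of 135 same-numbered pairs of arrays correlated above 0.1. The mean correlation was 0.035 for same-numbered pairs and -0.018 for other pairs. Pairs of other numbers above 0.1 were not counted, so these values cannot exclude a pairing. The fit on only the groups compared and the filter on dim genes also moved no count beyond 1.5 times.

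Without the fold threshold, members lower were 27 for 84 h against 60 h in VCAM cells and 24 in YFP cells, 1 for VCAM 84 h against QSCs and 1 each for YFP 36, 60 and 84 h against QSCs. VCAM minus YFP then gave 25 higher and 2 lower in QSCs, 33 and 2 at 36 h, 6 higher at 60 h, and 7 and 1 at 84 h, and its response differences 9 and 2 at 36 h, 2 and 10 at 60 h and 4 and 17 at 84 h. Old against young gave 1 higher and 30 lower in QSCs, 40 lower at 60 h, and 14 and 9 for the response. Shares of all genes without the fold threshold were not computed for several of these comparisons. They are the gate difference in QSCs, YFP 84 h against 60 h, the comparisons with QSCs and every response difference. No statement about the set rests on those counts.

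With the arrays centred on their median, 6 members were lower in YFP cells at 84 h against 60 h, 3 higher in VCAM than YFP QSCs, 1 higher and 1 lower for the gate response at 60 h, 1 lower at 84 h, 8 lower in old 60 h ASCs and 3 lower for the age response. Quantile normalization gave 1 lower for VCAM 84 h and for YFP 60 and 84 h against QSCs, 4 lower for YFP 84 h against 60 h and 2 lower for the age response. The cause was not tested.

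Leaving out 1 array gave these ranges of members called. Against QSCs, 42 rises throughout in both sorts and in old cells, with 1 fall at VCAM 36 and 60 h and in old cells and 0 to 1 at VCAM 84 h. For 60 h against 36 h, 38 to 39 rises in VCAM and 41 to 42 in YFP cells. For 84 h against 60 h, 0 to 2 falls in VCAM and 2 to 4 in YFP cells, the 4 without YFP 60 h array 2 or 84 h array 1. For VCAM minus YFP, 4 to 6 rises in QSCs and 4 to 6 at 36 h. For the gate response, 2 to 3 rises at 36 h, 0 to 1 rises and 1 to 4 falls at 60 h, the 1 fall without VCAM QSC array 3 and the 4 without array 1, and 1 to 3 falls at 84 h, the 1 fall without VCAM QSC array 2 or YFP QSC array 1. For old against young, 15 to 18 falls in QSCs and 3 to 5 at 60 h, and 5 to 8 rises and 0 to 4 falls for the response. Intensities in QSCs are low for most of these genes, which limits the precision of folds over QSCs.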
